A study of Mus musculus with 8 samples.

Results

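Toll-like receptors are the membrane sensors with which microglia, the macrophages that reside in brain and spinal cord, recognise microbial products and debris of dying cells. The genes described here are 8 Toll-like receptor genes (Tlr1, Tlr2, Tlr3, Tlr4, Tlr6, Tlr7, Tlr9 and Tlr13), Cd14, which encodes a surface co-receptor that hands ligands to TLR4 and TLR2, and Myd88, which encodes the adaptor shared by most of the family. They are 10 of the 27998 genes counted, taken by symbol with no threshold on a measured value, although earlier results of these data were known when the family was chosen. All 10 had UMIs in all 8 libraries. UMIs are the molecular identifiers by which each captured RNA is counted once.

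RNA of single YFP (+) cells sorted from the lumbar spinal cord of young adult C57BL/6 mice was counted in 8 libraries, one for each combination of genotype and time. The 4 control libraries came from Cx3cr1-yfp-creER/+ animals, and the 4 A20 cKO libraries from Cx3cr1-yfp-creER/+; Tnfaip3 fl/fl animals. For each genotype there was a naive library and a library from each of days 1, 2 and 3 after bilateral sciatic nerve transection. This injury drives proliferation of microglia in the corresponding lumbar spinal cord. All animals therefore carried YFP and a tamoxifen-dependent Cre in place of one Cx3cr1 copy, and Cre expressed from Cx3cr1 acts in microglia, in border macrophages and, until they turn over, in monocytes. Tamoxifen was given for recombination, and the methods place all experiments 7 days after its first dose without naming the controls. Each library pooled the cords of 3 animals, so a group had 1 library, no replicate and no test against another group. Ranges after values are 95% intervals that cover counting error alone, and variation between animals was not measured. Throughout, control and A20 cKO name the libraries so labelled.

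The receptors of this family sense different molecules from different membranes. TLR2 pairs with TLR1 or TLR6 at the cell surface and binds bacterial lipopeptides, and TLR4 binds lipopolysaccharide with the help of CD14 and of MD-2, the product of Ly96. TLR3, TLR7, TLR9 and TLR13 sit in endosomes, where they bind double-stranded RNA, single-stranded RNA, unmethylated CpG DNA and bacterial ribosomal RNA, respectively. MyD88 couples the receptors other than TLR3 to kinases and ubiquitin ligases that activate NF-kB, and TLR3 signals through TRIF, encoded by Ticam1, to NF-kB and interferon regulatory factors. A20, the ubiquitin-editing enzyme that Tnfaip3 encodes, restrains NF-kB signalling downstream of these receptors.

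Of 14883 barcodes, 14626 passed the filters on cells, and the libraries held between 1648400 and 15817426 UMIs. The libraries were divided into 2 technical sets by the barcodes they shared. The 4 A20 cKO libraries and control day 3, the linked libraries hereafter, shared 256 barcodes in their 10 pairs where 45.6 were expected from the median rate of sharing over all pairs, whereas their 15 pairs with the other 3 libraries shared 98 where 129.8 were expected. Single pairs overlapped, with shared over expected barcodes from 2.31 to 28.8 within the linked libraries and from 0.34 to 3.76 across. The highest ratio across was that of control naive with A20 cKO day 1, on 5 shared barcodes. All comparisons of control day 3 with control naive, and of A20 cKO naive with control naive, cross this split, and there batch, genotype and day cannot be told apart. Tnfaip3 had between 6.83 and 25.3 CPM (UMIs per 1000000 UMIs of the library) in the control libraries and between 42.3 and 67.7 CPM in the A20 cKO libraries. The 3′ end that is counted need not lie in the deleted part of the gene, so these values do not check the deletion. Defining microglial genes were present throughout: P2ry12 was found in between 90.1% and 100% of the cells of each library and Tmem119 in between 96.2% and 100%. The summed level of 8 microglial markers was nevertheless lower in some libraries, between 17970 and 24672 CPM in control, 18936 CPM in A20 cKO naive and between 11892 and 13722 CPM in the injured A20 cKO libraries. Cells with at least 3 oligodendrocyte markers made up between 0.176% and 1.94% of the control libraries, 1.10% of A20 cKO naive and between 3.39% and 5.55% of the injured A20 cKO libraries. Summed neutrophil markers were at 0 in the 3 unlinked libraries and between 24.4 and 45.6 CPM in the linked ones, and summed monocyte markers lay between 2.21 and 3.70 CPM against 27.04 to 86.03 CPM.

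The summed level of the 8 receptors was higher in the linked libraries than in the other 3. In control it started at 459.7 CPM (427.3 to 494.0) in the naive library, with 377.4 CPM on day 1, 321.5 CPM on day 2 and 610.4 CPM (592.6 to 628.6) on day 3. A20 cKO naive had 766.4 CPM (748.4 to 784.8), A20 cKO days 1 and 2 had 784.2 and 773.3 CPM, and A20 cKO day 3 had 886.5 CPM (850.3 to 923.9). The sums of the surface and of the endosomal receptors ordered the libraries differently. The sum of Tlr1, Tlr2, Tlr4 and Tlr6 was between 159.4 and 214.9 CPM in the 4 control libraries. In the 4 A20 cKO libraries it was between 345.9 and 487.5 CPM, so the genotypes did not overlap. The share of all genes with no overlap was not counted. The sum of Tlr3, Tlr7, Tlr9 and Tlr13 was 272.8 CPM in control naive and close to 162 CPM on days 1 and 2, but 445.2 CPM in control day 3, above the 399.0 to 420.7 CPM of the A20 cKO libraries. The endosomal sum thus separated the linked from the unlinked libraries, and the surface sum the genotypes. Neither order was shared by all genes of its class. Tlr2 made up 252.2 of the 345.9 CPM of the surface sum in A20 cKO naive, and Tlr1, Tlr4 and Tlr6 overlapped between the genotypes. Of the endosomal genes, Tlr3 and Tlr7 were higher in the linked libraries, whereas Tlr9 and Tlr13 were highest in control naive.

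**Figure D1:**
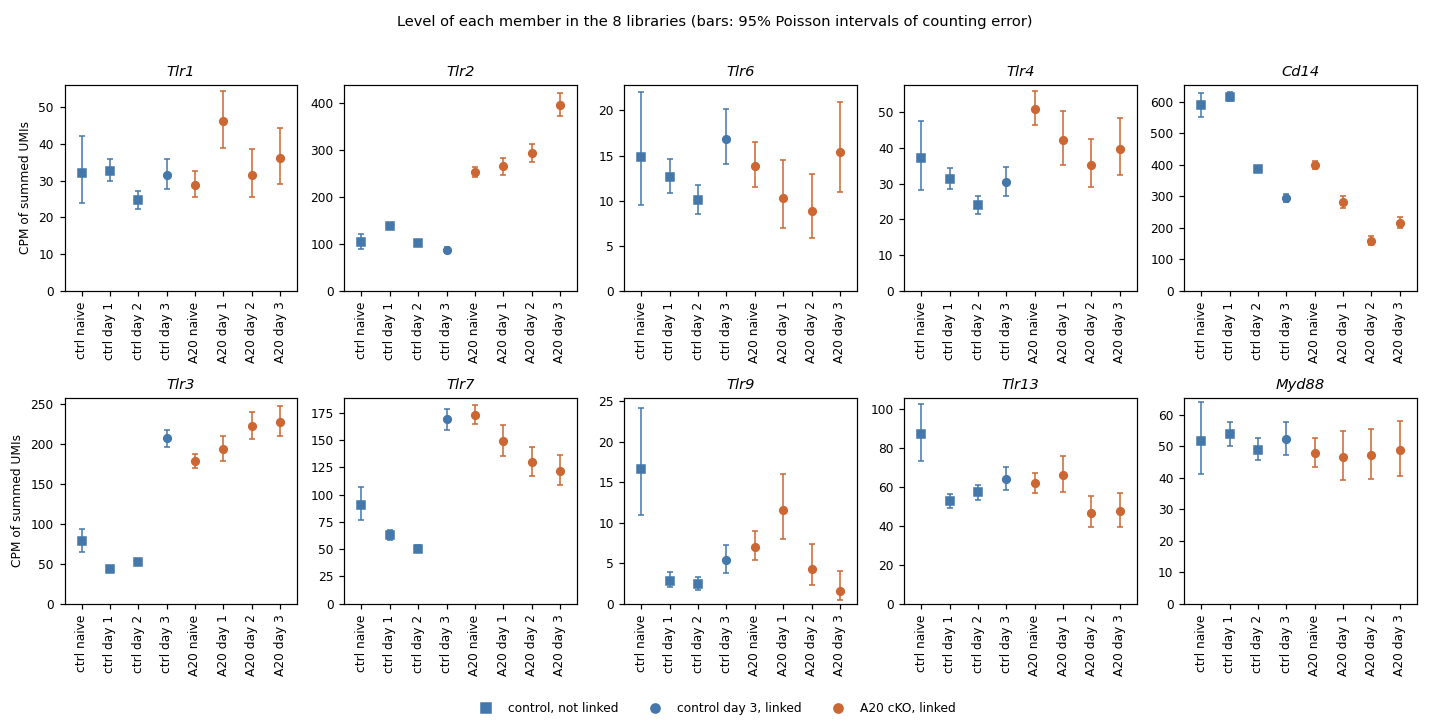
CPM of the summed UMIs of each member (y axis, linear, from 0) in the 8 libraries (x axis), with 95% Poisson intervals of counting error; squares are the unlinked control libraries, circles the linked ones, blue control and orange A20 cKO. Tlr2 is between 252.2 and 396.2 CPM in A20 cKO and between 86.3 and 138.3 CPM in control, Tlr3 and Tlr7 are high in control day 3 as in A20 cKO, and Myd88 stays between 46.6 and 53.9 CPM.

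Tlr2 (ENSMUSG00000027995, GRCm38 chromosome 3, 83836272 to 83841767, minus strand) had the largest ratio of any member when A20 cKO naive or A20 cKO day 3 was set against control day 3. Control naive had 103.1 CPM (88.02 to 119.9), control day 1 had 138.3 CPM (132.2 to 144.6), control day 2 had 100.8 CPM (95.9 to 105.8) and control day 3 had 86.3 CPM (79.7 to 93.3). A20 cKO naive had 252.2 CPM (241.8 to 262.8), A20 cKO day 1 had 264.8 CPM (246.8 to 283.8), A20 cKO day 2 had 293.7 CPM (274.7 to 313.6) and A20 cKO day 3 had 396.2 CPM (372.1 to 421.5). The 4 A20 cKO libraries were all above the 4 control libraries, and the highest, A20 cKO day 3, was 4.59-fold the lowest, control day 3. In this order the ratios of neighbouring libraries had intervals that included no difference for A20 cKO day 1 and naive and for control naive and day 2. The share of all genes with the A20 cKO libraries all above the control libraries was not counted, and control day 3 is the only linked control library. Between linked libraries, A20 cKO naive exceeded control day 3 by 1.55 on the log2 scale (1.42 to 1.68) and A20 cKO day 3 exceeded it by 2.20 (2.05 to 2.34). After nerve injury Tlr2 in control was higher by 0.42 (0.20 to 0.66) on day 1 and differed by −0.04 (−0.26 to 0.21) on day 2, while the A20 cKO ratios were 0.07 (−0.05 to 0.19), 0.22 (0.11 to 0.33) and 0.65 (0.54 to 0.76) in the order of days. Among cells with UMIs of at least 3 of 10 interferon-induced genes, which made up 35.0% of A20 cKO naive and 86.6% of A20 cKO day 3, the same ratios were −0.22 (−0.36 to −0.08), −0.48 (−0.60 to −0.35) and −0.01 (−0.13 to 0.10), and among the other cells 0.38 (0.17 to 0.59), 1.02 (0.68 to 1.33) and 1.04 (0.65 to 1.39).

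The share of cells with a Tlr2 UMI showed the same order of genotypes once depth was made equal. With each cell thinned to 2000 UMIs, 16.9% of control naive cells had a Tlr2 UMI, with 23.0%, 18.5% and 13.3% on the days after injury. A20 cKO had 27.7% in the naive library and 32.8%, 32.1% and 45.4% after injury. A20 cKO day 3 exceeded control day 3 by 32.0 percentage points (27.6 to 36.5). The unthinned shares were 23.6%, 41.3%, 32.2% and 19.8% for control, with 34.5%, 43.1%, 52.8% and 62.9% for A20 cKO. Among thinned cells, those with at least 3 Tlr2 UMIs made up between 0.316% and 0.996% of each control library and between 4.17% and 7.06% of each A20 cKO library. The ratio of variance to mean of Tlr2 UMIs per cell, which is 1 for counting noise alone, was between 1.06 and 1.59 in the control libraries. For A20 cKO it was 2.12 in the naive library, then 1.51, 1.98 and 1.77 after injury. Tlr2 was thus unevenly spread over the cells of the A20 cKO libraries and of control day 3, whose 1.59 exceeded the 1.51 of A20 cKO day 1. Mean Tlr2 UMIs per thinned cell were 0.165 in control day 3 and 0.48 in A20 cKO day 1. The ratio was not adjusted for the mean.

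Promoter sequences of 3 members are shown because Tlr2 and Tlr3 carried the main differences between libraries and Myd88 was level in all of them. Each sequence runs from 250 bases before to 50 bases after the start that RefSeq annotates on GRCm38.p6, on the strand of the gene, and capitals mark letters that match the NF-kB pattern GGGNNTTNC or the interferon-stimulated response element pattern GAAANNGAA on either strand.
Tlr2 promoter (chr3:83841559-83841858, minus strand): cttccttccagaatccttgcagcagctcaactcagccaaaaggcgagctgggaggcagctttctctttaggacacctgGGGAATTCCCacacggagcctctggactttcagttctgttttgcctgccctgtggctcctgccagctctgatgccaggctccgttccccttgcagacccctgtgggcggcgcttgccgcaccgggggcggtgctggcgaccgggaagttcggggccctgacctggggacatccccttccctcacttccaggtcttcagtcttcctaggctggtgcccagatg
Tlr3 promoter (chr8:45410331-45410630, minus strand): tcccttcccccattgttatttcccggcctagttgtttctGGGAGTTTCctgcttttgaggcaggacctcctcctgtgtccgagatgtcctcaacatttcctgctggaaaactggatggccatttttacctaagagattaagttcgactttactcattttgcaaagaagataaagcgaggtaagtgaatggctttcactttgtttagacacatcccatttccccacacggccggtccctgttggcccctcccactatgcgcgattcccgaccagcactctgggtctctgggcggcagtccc
Myd88 promoter (chr9:119339969-119340268, minus strand): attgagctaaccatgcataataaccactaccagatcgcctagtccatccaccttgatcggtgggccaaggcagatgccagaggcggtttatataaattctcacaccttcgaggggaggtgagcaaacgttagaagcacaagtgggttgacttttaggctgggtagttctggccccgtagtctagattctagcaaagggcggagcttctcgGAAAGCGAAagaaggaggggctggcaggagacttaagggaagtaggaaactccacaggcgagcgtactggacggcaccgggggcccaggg

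In the Tlr2 promoter the NF-kB letters matched on both strands in overlapping positions, beginning 172 bases before the annotated start. They matched once in the Tlr3 promoter, 211 bases before the start, and not in the Myd88 window, whose single response element match began 40 bases before the start. These distances depend on the start used, since the GENCODE genes reach further upstream. The Tlr2 gene reaches 83841767, within its window. The Tlr3 and Myd88 genes reach 45411080 and 119341411, so their windows lie wholly inside them. The NF-kB letters occurred in 15.2% and the response element letters in 8.55% of 32817 mouse promoters of the same length. Promoters were found for 7 of the 10 members. Among those not printed, one of the Tlr6 promoters held 2 overlapping response element matches, and Tlr1, Tlr9 and Tlr13 held none of either pattern. Of the further patterns searched, the gamma-activated site TTCNNNGAA, present in 8.29% of promoters, was found for Tlr1, Tlr6 and Myd88, and the PU.1 core GAGGAAG, present in 13.6%, for Tlr1, Tlr9 and Tlr13. A match describes letters only, and these data hold no measure of binding.

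Tlr1 and Tlr6 (ENSMUSG00000044827 and ENSMUSG00000051498, chromosome 5, 64924679 to 64933563 and 64952031 to 64960097, minus strand), whose products pair with TLR2, were not separated by genotype. Tlr1 was 32.1 CPM in control naive and 32.7, 24.7 and 31.6 CPM after injury, while A20 cKO naive had 28.9 CPM and its injured libraries 46.2, 31.6 and 36.2 CPM. All 7 neighbouring ratios in the order of these libraries had intervals that included no difference, although A20 cKO day 1 exceeded A20 cKO naive by 0.68 (0.37 to 0.98). Tlr6 was between 10.1 and 16.9 CPM for control and between 8.90 and 15.3 CPM for A20 cKO, on between 24 and 178 UMIs per library. Against control day 3, A20 cKO day 3 differed by 0.20 (−0.17 to 0.55) for Tlr1 and by −0.12 (−0.70 to 0.39) for Tlr6. Transcripts of Tlr1 and Tlr6 share an identical run of 229 bases, but at most 8 bases in their last 600, the end from which this chemistry counts.

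Tlr4 (ENSMUSG00000039005, chromosome 4, 66827584 to 66930284, plus strand), the lipopolysaccharide receptor, spanned a 2.13-fold range. Control naive had 37.03 CPM (28.3 to 47.7), and its injured libraries 31.2, 23.9 and 30.5 CPM. A20 cKO naive had 51.01 CPM (46.4 to 55.9), and its injured libraries 42.3, 35.3 and 39.7 CPM. Control naive and A20 cKO day 2 differed by less than counting error, so the genotypes overlapped. A20 cKO naive exceeded control day 3 by 0.74 on the log2 scale (0.51 to 0.98), the largest Tlr4 ratio among the linked pairs compared with control.

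Cd14 (ENSMUSG00000051439, chromosome 18, 36725067 to 36726798, minus strand), in contrast to Tlr2, was lowest in the A20 cKO libraries after injury. Control naive had 588.7 CPM (551.9 to 627.3), control day 1 had 615.6 CPM (602.7 to 628.7), control day 2 had 384.9 CPM (375.3 to 394.7) and control day 3 had 295.3 CPM (283.0 to 308.1). A20 cKO naive had 398.6 CPM (385.6 to 411.9), A20 cKO day 1 had 280.3 CPM (261.8 to 299.9), A20 cKO day 2 had 157.6 CPM (143.7 to 172.3) and A20 cKO day 3 had 216.02 CPM (198.3 to 234.9). Within each genotype the libraries of days 2 and 3 were below the naive library. On the log2 scale control day 2 was 0.61 below control naive (−0.71 to −0.51), and A20 cKO days 1, 2 and 3 differed from A20 cKO naive by −0.51 (−0.62 to −0.40), −1.34 (−1.48 to −1.20) and −0.88 (−1.02 to −0.75). The summed microglial markers were also lowest in the injured A20 cKO libraries, and their part in the Cd14 values was not tested. Across the split, control day 3 differed from control naive by −0.996 (−1.11 to −0.88). At 2000 UMIs per cell, 67.3%, 66.8%, 54.2% and 44.1% of control cells and 51.6%, 42.5%, 25.4% and 30.3% of A20 cKO cells had a Cd14 UMI. Among 15 cells with markers of non-myeloid types and no UMI of P2ry12, Tmem119 or Csf1r, 1 had a Cd14 UMI and 0 had a UMI of any other member. A count of 0 of 15 allows up to 20% of such cells to hold a UMI (3 counts of the total), and the Clopper-Pearson upper limits are 21.8% for 0 and 31.9% for 1 of 15. Their median depth was 1330 UMIs against 3533 in the other cells, so these few cells set no useful background.

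**Figure D2:**
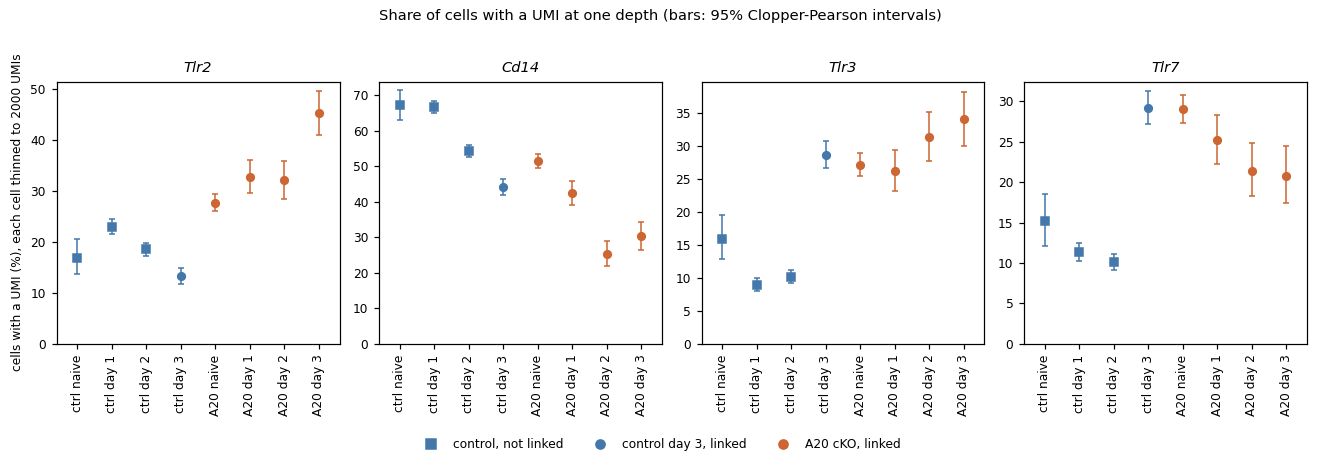
Share of cells with at least 1 UMI of Tlr2, Cd14, Tlr3 and Tlr7 (y axis, percent, from 0) in each library (x axis) after every cell was thinned to 2000 UMIs, with 95% Clopper-Pearson intervals; symbols mark genotype and linked libraries as in the plot of levels. Tlr2 reaches 45.4% in A20 cKO day 3 against 13.3% in control day 3, and Cd14 is lowest, at 25.4%, in A20 cKO day 2.

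Tlr3 (ENSMUSG00000031639, chromosome 8, 45395665 to 45411080, minus strand) separated the linked from the unlinked libraries rather than the genotypes. Control naive had 78.4 CPM (65.3 to 93.2), control day 1 had 44.03 CPM (40.6 to 47.6), control day 2 had 51.8 CPM (48.4 to 55.5) and control day 3 had 206.8 CPM (196.5 to 217.5). A20 cKO naive had 178.6 CPM (169.9 to 187.6), A20 cKO day 1 had 193.8 CPM (178.5 to 210.2), A20 cKO day 2 had 222.8 CPM (206.3 to 240.3) and A20 cKO day 3 had 227.8 CPM (209.6 to 247.2). Control day 3 thus fell among the A20 cKO libraries, and all neighbouring ratios within these 5 had intervals that included no difference. Libraries further apart in that order did differ. A20 cKO days 1, 2 and 3 were at 0.12 (−0.02 to 0.26), 0.32 (0.19 to 0.45) and 0.35 (0.21 to 0.49) against A20 cKO naive. Against control day 3, A20 cKO naive differed by −0.21 (−0.31 to −0.11) and A20 cKO day 3 by 0.14 (−0.00 to 0.28). Control days 1 and 2 differed from control naive by −0.84 (−1.11 to −0.54) and −0.60 (−0.87 to −0.31). The share of cells with a Tlr3 UMI at 2000 UMIs was between 8.93% and 15.9% in the unlinked libraries, 28.6% in control day 3 and between 26.1% and 34.0% in A20 cKO. Summed interferon-induced genes moved with it, at between 131.6 and 222.8 CPM in the unlinked and between 2039 and 3777 CPM in the linked libraries, and their part in the difference was not tested.

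Tlr7 (ENSMUSG00000044583, chromosome X, 167304929 to 167330558, minus strand) was also higher in the linked libraries, but lower in the injured than in the naive A20 cKO library. Control naive had 90.7 CPM (76.6 to 106.6), control days 1 and 2 had 62.9 and 50.6 CPM, and control day 3 had 168.9 CPM (159.6 to 178.6). A20 cKO naive had 173.0 CPM (164.5 to 181.9), days 1 and 2 had 149.3 and 129.9 CPM, and day 3 had 122.0 CPM (108.8 to 136.3). A20 cKO naive and control day 3 differed by 0.03 (−0.07 to 0.14), and A20 cKO day 3 was below control day 3 by −0.47 (−0.65 to −0.29). The injured A20 cKO libraries differed from A20 cKO naive by −0.21 (−0.37 to −0.06), −0.41 (−0.58 to −0.25) and −0.50 (−0.68 to −0.33) on days 1, 2 and 3.

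Tlr9 (ENSMUSG00000045322, chromosome 9, 106222598 to 106226883, plus strand) and Tlr13 (ENSMUSG00000033777, chromosome X, 106143204 to 106160493, plus strand) were highest in control naive. Tlr13 was 87.01 CPM (73.2 to 102.6) there, between 52.7 and 64.1 CPM in the other control libraries and between 46.8 and 66.04 CPM in A20 cKO. In order of level, 6 of its 7 neighbouring ratios had intervals that included no difference, the exception being control naive over A20 cKO day 1. Libraries further apart did differ. A20 cKO days 1, 2 and 3 were at 0.10 (−0.15 to 0.33), −0.40 (−0.68 to −0.13) and −0.37 (−0.67 to −0.09) against A20 cKO naive. Against control day 3, A20 cKO naive differed in Tlr13 by −0.05 (−0.23 to 0.13) and A20 cKO day 3 by −0.42 (−0.73 to −0.14). Tlr9 was 16.7 CPM (10.98 to 24.2) in control naive, on 27 UMIs, and between 1.57 and 11.6 CPM in the other 7 libraries, on between 4 and 63 UMIs. Its counts were too few for most of the comparisons. Myd88 (ENSMUSG00000032508, chromosome 9, 119335934 to 119341411, minus strand) was the flattest member, between 49.00 and 53.9 CPM for control and between 46.6 and 48.8 CPM for A20 cKO, a 1.16-fold range with all 7 neighbouring intervals including no difference. In the annotation Myd88 overlaps Slc22a14 on the same strand and Acaa1a on the other, and Tlr3 overlaps an antisense transcript, so a part of their reads could be assigned to another gene.

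Among members with at least 100 UMIs in both libraries together, the minimum for a gene to be compared, at most 2 were past 2-fold in any of the 9 comparisons, and these were Tlr2, Tlr3 or Cd14. In control day 1 against naive 0 of 9 members compared were past 2-fold, beside 11.1% of all genes, and in control day 2 against naive 0 of 9, beside 12.2%. In the pairs across the split, control day 3 against control naive had 1 of 9 (Tlr3, by 1.39), beside 11.1%, and A20 cKO naive against control naive had 2 of 9 (Tlr2, by 1.29, and Tlr3, by 1.18), beside 9.65%. Between linked libraries of different genotype, A20 cKO naive against control day 3 had 1 of 10 (Tlr2), beside 2.45%, and A20 cKO day 3 against control day 3 had 1 of 9 (Tlr2), beside 4.26%. Within A20 cKO, day 1 had 0 of 9, beside 2.95%, day 2 had 1 of 9 (Cd14, lower), beside 5.50%, and day 3 had 0 of 9, beside 3.92%. The median of all genes was shifted by between −0.13 and 0.07 in these 9 comparisons, and the median of the members was −0.25 and −0.60 in control days 1 and 2 against naive. Comparisons with control naive share that library, and those with A20 cKO naive or control day 3 share theirs. In sums over sorted cells, fewer cells with a transcript and less RNA in each such cell cannot be told apart. The shares above depend on both at this depth, so they do not separate them either.

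**Figure D3:**
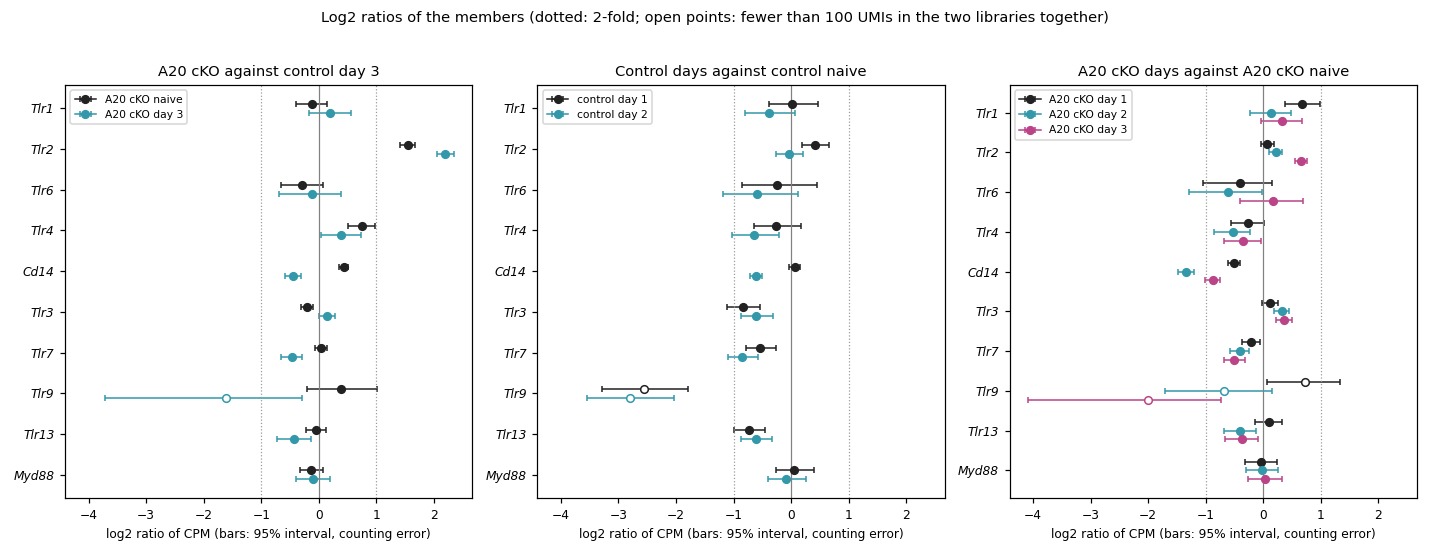
Log2 ratios of CPM (x axis) for the 10 members (y axis) in 7 comparisons that stay on one side of the technical split, with exact conditional 95% intervals of counting error; dotted lines mark 2-fold and open points have fewer than 100 UMIs in the 2 libraries together. Tlr2 lies at 1.55 and 2.20 against control day 3, Cd14 at −1.34 in A20 cKO day 2 against naive, and Myd88 close to 0 in every panel.

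Within single libraries, Tlr3 and Tlr2 were higher in cells that also carried interferon-induced transcripts. Cells were split by whether they held UMIs of at least 3 of 10 interferon-induced genes (Isg15, Ifit1, Ifit2, Ifit3, Irf7, Usp18, Rsad2, Oasl2, Ifi204 and Cxcl10), which was possible in the 7 libraries with at least 50 such cells. Such cells made up between 1.81% and 3.40% of the unlinked libraries and 43.7% of control day 3. In A20 cKO they made up 35.0% of the naive library and 43.1%, 82.9% and 86.6% after injury. Tlr3 was higher in them in 7 of 7 libraries, by 0.46 to 1.44 on the log2 scale with a median of 0.97. In control day 3 it was 269.5 against 137.4 CPM and in A20 cKO naive 241.8 against 131.3 CPM. Tlr2 was higher in 6 of 7 libraries, all but A20 cKO day 2, and most in A20 cKO naive, where it was 414.5 CPM in 1022 cells with and 130.7 CPM in 1900 cells without such transcripts, a log2 ratio of 1.66 (1.53 to 1.80), against 0.50 (0.27 to 0.74) in control day 3. Cd14 was lower in 4 of 7 libraries, among them A20 cKO naive with 276.2 against 490.2 CPM and control day 3 with 225.4 against 372.8 CPM. Myd88 differed in none of the 7 by more than counting error. Cells with interferon-induced transcripts had more UMIs than the rest in each of these libraries, for example a median of 3472 against 2576 in A20 cKO naive. The part of depth in these differences was not tested.

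Tlr2 was higher in A20 cKO than in control day 3 in both kinds of cells. A20 cKO naive and control day 3 differ in injury as well as genotype, which cannot be told apart there. The day 3 libraries alone share the day. Among cells with at least 3 interferon-induced genes, Tlr2 was 414.5 CPM in A20 cKO naive and 410.5 CPM in A20 cKO day 3 against 100.3 CPM in control day 3, by 2.05 (1.89 to 2.21) and 2.03 (1.86 to 2.21). Among cells with fewer, it was 130.7 and 267.5 CPM against 70.9 CPM, by 0.88 (0.67 to 1.10) and 1.92 (1.51 to 2.31). The 267.5 CPM of A20 cKO day 3 rest on 68 UMIs in 75 cells. Among cells with no UMI of the 10 genes, A20 cKO naive had 106.9 CPM (92.9 to 122.4) in 777 cells, control naive 107.1 CPM (88.4 to 128.5) in 389 cells and control day 3 58.1 CPM (43.3 to 76.4) in 339 cells. In this subset the naive libraries of the genotypes, which lie across the split, differed in Tlr2 by −0.01 (−0.34 to 0.34). Tlr7 behaved otherwise: in cells with no such UMI it was 212.7 CPM in A20 cKO naive and 202.9 CPM in control day 3 against 92.2 CPM in control naive, by 1.20 (0.89 to 1.54) and 1.14 (0.78 to 1.51). Tlr3 there was 132.9, 109.4 and 78.2 CPM in the same order.

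**Figure D4:**
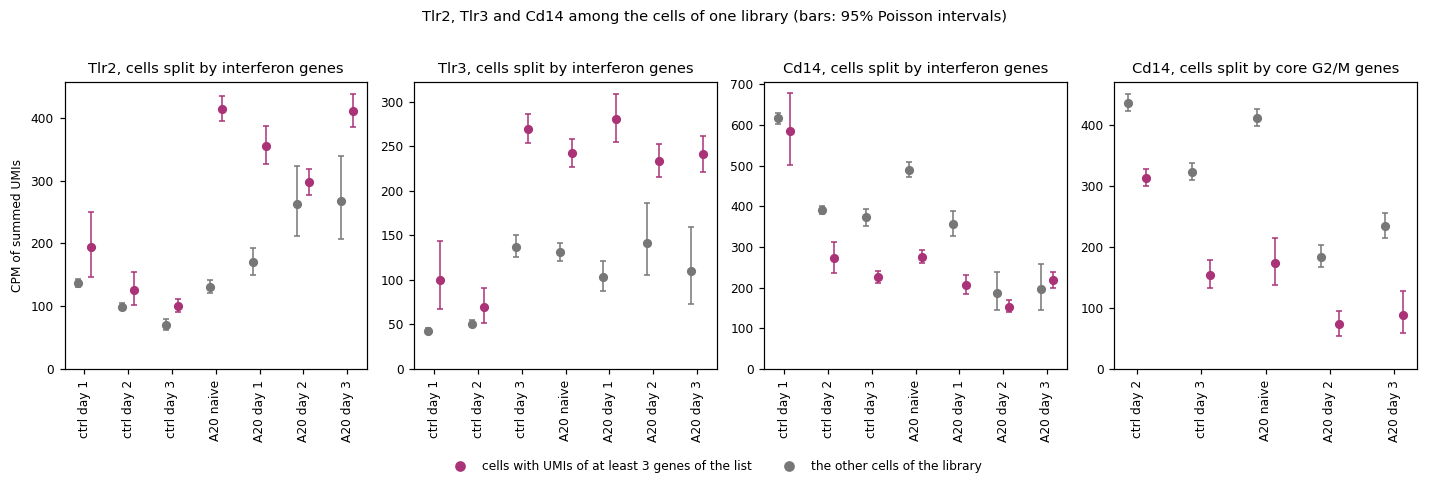
CPM of summed UMIs (y axis, from 0) of Tlr2, Tlr3 and Cd14 in cells with UMIs of at least 3 interferon-induced genes and of Cd14 in cells with at least 3 core G2/M genes (purple), against the other cells of the same library (grey), for the libraries with at least 50 such cells (x axis); bars are 95% Poisson intervals. Tlr2 in A20 cKO naive is 414.5 against 130.7 CPM, Tlr3 is higher with interferon-induced genes in all 7 libraries, and Cd14 is lower with G2/M genes in all 5.

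Relative to all UMIs, Cd14 was lower in cells with transcripts of cell division. The split used 18 core genes of the G2/M phases, among them Mki67, Top2a and Cdk1. Cells with UMIs from 3 or more of them had a lower Cd14 CPM than the rest in 5 of 5 libraries with at least 50 such cells. It was 313.1 against 435.8 CPM in control day 2, 154.2 against 323.2 CPM in control day 3 and 172.9 against 411.4 CPM in A20 cKO naive. In A20 cKO days 2 and 3 it was 73.2 against 184.0 CPM and 88.6 against 234.9 CPM. The log2 ratios ran from −1.38 to −0.48. Cells with these transcripts had more UMIs than the rest in each library, for example a median of 5490 against 3562 in control day 2. There 1109 such cells held 2053 Cd14 UMIs and the 2476 others 4035, so Cd14 UMIs per cell were not lower. In the other libraries Cd14 UMIs per cell were lower too. The part of depth in these ratios was not tested. By CPM, Tlr3 was lower in 4 of the 5, with ratios down to −0.57, Tlr7 in 2 and Tlr4 in 1, while Tlr2 was higher in 1 and Myd88 in none. Summed core G2/M genes were at 35.2 and 28.03 CPM in control naive and day 1, at 929.0 and 798.3 CPM in control days 2 and 3, and between 298.5 and 1292 CPM in A20 cKO, highest on day 2, the library with the lowest Cd14. Leaving out the cells with at least 3 of them, an alternative chosen after seeing the data, gave −1.16 for Cd14 in A20 cKO day 2 against naive and −0.87 in control day 3 against naive.

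Immediate-early genes, which dissociation of tissue can induce, stood out in control day 1. Their sum was 19142 CPM there and between 820.4 and 4021 CPM in the other libraries, and Fos was found in 99.7% of control day 1 cells. Tlr2 was higher in cells with Fos UMIs in 4 of 5 libraries, by 0.25 to 0.30 on the log2 scale, the remaining one being control day 1 with 10 cells without Fos. Cd14 was higher in 1 of 5, A20 cKO naive, at 442.7 against 356.6 CPM. The part of these genes in the Tlr2 level of control day 1 was not tested. Cells with Fos UMIs had more UMIs than the rest in each library of this split, for example a median of 3053 against 2635.5 in A20 cKO naive. The part of depth in the Tlr2 and Cd14 differences by Fos was not tested.

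Most of the more abundant members were found in the same cell about as often as their separate shares give. Over the 8 libraries, Tlr2 and Tlr3 were found together in 680 thinned cells where 629.7 were expected from the product of their shares within each library, and Tlr2 and Cd14 in 1594 where 1626 were expected. Tlr1 and Tlr2 were together in 163 cells with 187.2 expected, and Tlr4 and Cd14 in 477 with 466.5 expected. Some pairs with rarer members lay further from their expected number. Tlr6 and Tlr7 were together in 95 cells with 73.4 expected, above it in 3 of 3 libraries with at least 10 expected, and Tlr2 and Tlr6 in 72 with 85.7 expected, below it in 3 of 3. Tlr1 and Tlr6 were together in 31 cells with 21.5 expected, and Tlr9 and Myd88 in 22 with 12.9 expected. Between 33.9% and 51.0% of the thinned cells of each control library had no UMI of any of the 8 receptors, against between 22.7% and 30.03% for A20 cKO. At this depth a cell without a UMI cannot be called negative.

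The other genes of the pathway differed from control day 3 mainly among the targets of signalling. Of 13 genes induced by it that could be compared, 5 were at least 2-fold higher and 0 lower in A20 cKO naive, with a median log2 ratio of 0.76, beside 2.45% of all genes past 2-fold either way and a median of −0.01. Of 12 in A20 cKO day 3, 9 were higher and 0 lower, with a median of 1.58, beside 4.26% and a median of −0.12. Ccl5, a chemokine for lymphocytes and monocytes, was 1435 CPM in A20 cKO naive and 2508 CPM in A20 cKO day 3 against 34.9 CPM in control day 3. Il12b, a subunit of interleukin 12, was 23.4 and 54.3 CPM against 0.549 CPM, the latter on 4 UMIs. Ccl3 and Ccl4, inflammatory chemokines, exceeded control day 3 by 2.45 and 2.51 in A20 cKO day 3. The cytokine gene Tnf was 123.6 against 34.9 CPM. In the same comparison 1 of 7 transcription factors was past 2-fold, Irf7, at 534.7 against 171.0 CPM, and 1 of 9 inhibitors, Tnip1, which encodes a partner of A20, at 23.2 against 9.61 CPM. Single genes in lists of this size are not set apart from the 4.26% of all genes. Irf7 and Cxcl10 also belong to the interferon-induced genes used above.

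Few genes between receptor and target were past 2-fold. In A20 cKO day 3 against control day 3, 0 of 6 adaptors that could be compared (from Tirap, Ticam1, Ticam2, Sarm1, Pik3ap1, Syk and Btk), 0 of 6 trafficking and folding genes and 0 of 4 co-receptors were past 2-fold, with medians of −0.32, 0.15 and 0.04. Of 16 kinases and ubiquitin ligases, Traf3 was higher, at 28.3 against 11.7 CPM, and Tab1 lower, at 5.90 against 13.2 CPM, so 2 of 16 were past 2-fold. Beside 4.26% of all genes, a count of 0 in lists this short says little. In A20 cKO naive against control day 3, none of these 4 lists had a gene past 2-fold, and Socs1, an inhibitor of cytokine signalling, was lower by −1.01 (−1.41 to −0.62). Unc93b1, which carries the endosomal receptors to their compartment, was 973.0 CPM in control day 3, 1187 CPM in A20 cKO naive and 1101 CPM in A20 cKO day 3. Ly96 was 46.9, 74.6 and 61.0 CPM in these libraries. Of the remaining Toll-like receptor genes, Tlr12 was present at between 10.03 and 17.8 CPM, and Tlr5, Tlr8 and Tlr11 had at most 23 UMIs in any library.

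After injury in control, induced genes were high on day 1, the library with the high immediate-early genes. Of 11 that could be compared with control naive, 8 were at least 2-fold higher and 2, Il6 and Ccl5, lower, beside 11.1% of all genes past 2-fold either way. In control day 2, 3 of 10 were higher and 1 lower, beside 12.2%. Ccl2, a chemokine for monocytes, was 7.41 CPM in control naive, 502.5 CPM on day 1 and 88.6 CPM on day 2. Tnf was 16.7, 158.1 and 37.4 CPM in these libraries. Among inhibitors, Dusp1, a phosphatase that is itself an immediate-early gene, was 24.07 CPM in control naive and 1948 CPM on day 1. Of 15 kinases and ubiquitin ligases compared, 2 were past 2-fold on each day, both lower, beside 11.1% and 12.2% of all genes. Irak2, a kinase that acts downstream of MyD88, was at 124.0 CPM in control naive against 57.6 and 51.02 CPM. Traf6, a ubiquitin ligase, was at 21.6 against 9.96 and 7.84 CPM. Counts this near the share of all genes do not set the list apart. In A20 cKO, Ccl2 was 201.3, 562.0, 477.3 and 576.1 CPM in naive, day 1, day 2 and day 3.

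**Figure D5:**
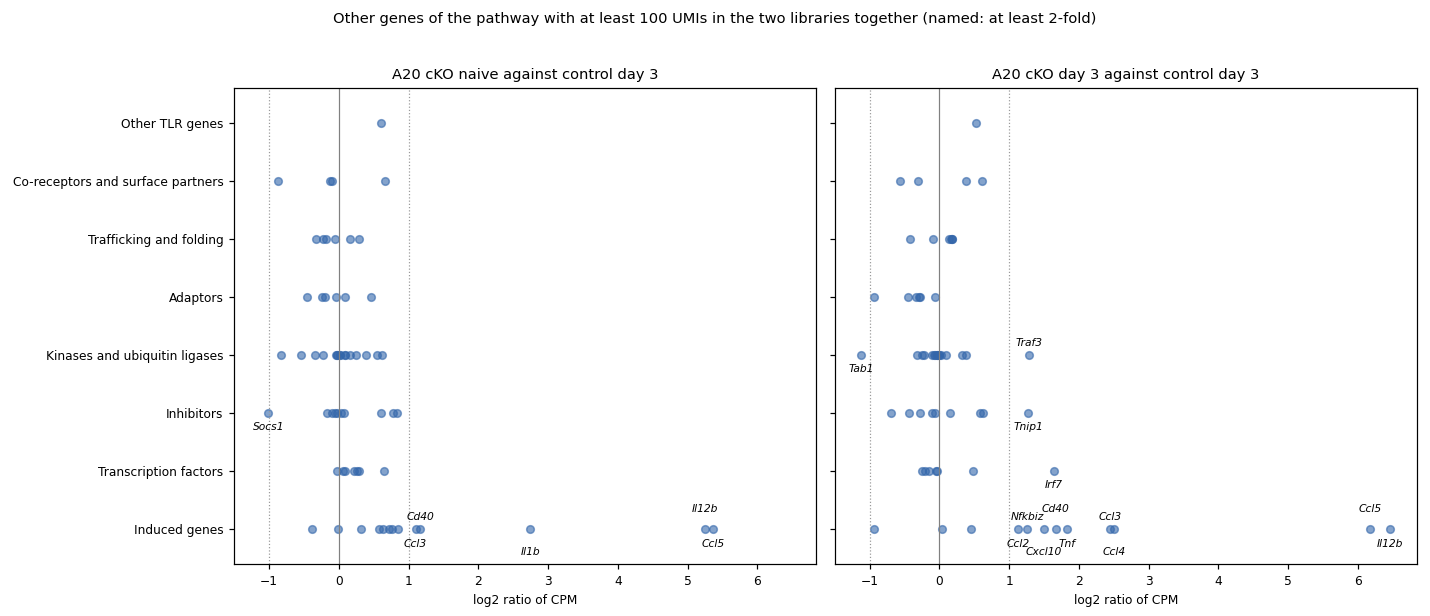
Log2 ratios of CPM (x axis) of the other genes of the pathway, grouped by role (y axis), in A20 cKO naive and A20 cKO day 3 against control day 3; each point is a gene with at least 100 UMIs in the 2 libraries together, and genes at least 2-fold apart are named. Induced genes hold the largest ratios, with Ccl5 at 5.36 and 6.17, while adaptors, trafficking genes and co-receptors lie within 2-fold.

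Over the 8 libraries, the genes whose log2(CPM + 1) ran most nearly parallel to each member were taken from 6104 genes that averaged at least 20 CPM, as a description. For Tlr3 these were Ifit3b (r = 0.9995) and Ifit3 (r = 0.997), both interferon-induced, and for Tlr2 Igsf6 (r = 0.975) and Ly6i (r = 0.962). Cd14 ran with Gna15 (r = 0.990) and Klhdc8b (r = 0.980), and Tlr7 with Rnf111 and Btk (r = 0.995 for both), the latter a kinase of the adaptor list. For the other members the highest r was 0.911 for Tlr1 (Snd1), 0.916 for Tlr6 (Pepd), 0.962 for Tlr4 (Rbm39), 0.977 for Tlr9 (Terf2), 0.985 for Tlr13 (Prorsd1) and 0.887 for Myd88 (Sh2b2). The 8 points share the technical split and the depth of their libraries.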

How the data were processed

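Single YFP (+) cells were sorted from lumbar spinal cord and sequenced with 10x Genomics 3′ chemistry, whose kit version differs between labels and methods. What the authors deposited were unnormalized counts of UMIs, 1 value per gene and barcode, as sparse matrices. Cell Ranger 2.1.1 and the build mm10 are named in the submitters' processing notes. The strand setting of counting is not given in the sources used here.

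Samples were grouped by the labelled genotype and day. Cells with at least 1000 UMIs, at least 500 genes and at most 10% mitochondrial UMIs were kept. This kept between 93.3% and 100% of each library. UMIs were summed per library and scaled to CPM (Python 3.11.15, numpy 2.4.6, scipy 1.17.1, pandas 2.3.3). Libraries were compared by log2 ratios with 0.5 UMIs added to each sum, and a gene whose 2 sums held at least 100 UMIs was called past 2-fold at a log2 ratio of at least 1 in size. Shares were computed after thinning each cell to 2000 UMIs, which left out 935 shallower cells. With 1 library per group no test was run. Intervals are exact Poisson (sums), exact conditional (ratios), Clopper-Pearson (shares) and Newcombe (differences of shares), at 95%, and cover counting error only. The ratio calculation was tested on simulated data. No doublet caller was run. Events were gated against doublets at the sort. Coordinates are from GENCODE M21 on GRCm38 and promoters from RefSeq.

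Members, gene lists and tests were chosen with earlier results of these data known. Besides members, list genes past 2-fold, up to 4 per list with the largest ratios, and the 2 genes most parallel to each member were named. Unc93b1, Ly96, Tlr5, Tlr8, Tlr11 and Tlr12 were named after their values were seen. Alternatives covered the filters on cells and genes, centring, library totals, weighting of cells, shared barcodes, cells with markers of another type and thinning.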

Additional observations from a re-analysis of the deposited data

Results flagged for a closer look

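In 4 members the library after injury differed from the naive library in opposite directions in the 2 genotypes, with both counting intervals away from 0. The share of all genes that meet this rule was not counted. Each side is a single pair of libraries, so the difference between genotypes was not tested, and the control day 3 values cross the technical split. Tlr2 on day 3 was at −0.26 on the log2 scale in control and 0.65 in A20 cKO. Tlr3 on day 2 was at −0.60 in control and 0.32 in A20 cKO. Tlr7 on day 3 was at 0.89 in control and −0.50 in A20 cKO. Tlr9 on day 1 was at −2.56 in control, on 40 and 27 UMIs, and 0.72 in A20 cKO, on 35 and 63 UMIs.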

How the results depend on the processing

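Of 945 log2 ratios of members under another setting, 911 stayed within the counting interval of the reported value with their direction, 32 moved beyond it and 2 changed direction. Both changes arose in cells without UMIs of the interferon-induced genes, a subset chosen after seeing the data: Tlr2 in A20 cKO naive against control naive became −0.00596, and Tlr3 in A20 cKO naive against control day 3 became 0.28. In the same subset Tlr2 in A20 cKO naive against control day 3 was 0.87. With a minimum of 30 UMIs instead of 100, Tlr9 entered the comparisons, and 1 member was past 2-fold in control days 1 and 2 and in A20 cKO day 3 when set against their naive libraries. Control day 3 over control naive and A20 cKO day 3 over control day 3 then had 2, and A20 cKO naive over control naive had 3, the highest count in any comparison. Control day 3 against control naive also had 2 members past 2-fold with ratios centred on the median gene, with the mean of cell CPM, and without barcodes found in more than 1 library. Of 270 differences of shares under another setting, 190 stayed within the interval of the reported difference, 72 moved beyond it and 8 changed direction. Without thinning these were Tlr4 in A20 cKO day 2 against naive (0.28 percentage points), Cd14 in control day 2 against naive (0.263), Tlr7 in control day 1 against naive (0.876) and in A20 cKO days 2 and 3 against naive (0.334 and 1.02), and Tlr13 in A20 cKO days 2 and 3 against naive (0.858 and 1.53). With another thinning seed it was Myd88 in A20 cKO naive against control day 3 (0.229). No paired analysis was possible because each group had 1 library. The design has no replicate, so leaving out a library leaves no comparison. Tlr6 and Tlr9 are limited by depth, with as few as 24 and 4 UMIs in a library.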
